A study of Mus musculus with 10 samples.

Results

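Hox genes encode homeodomain transcription factors, and the 39 genes described here were chosen by name alone: every symbol made of Hox, a cluster letter from a to d and a number. They were 39 of the 27716 genes listed in all matrices, and no measured value entered the rule. Levels were taken from single-cell RNA sequencing of the developing mouse pancreas, in 8 independent libraries of pooled pancreata. Of these, 4 were made with the version 1 (v1) 10x kit from all live cells of Swiss Webster embryos, at E12.5 (E stands for embryonic day), at E14.5 in 2 batches and at E17.5. A further 3 were made with the version 2 (v2) kit, at the same stages and from the same strain, from live cells that lacked the surface protein CD140a (Pdgfra). The 2 wells of the E17.5 v2 suspension were technical replicates, so their counts were summed and used as 1 library. The last library came from a single litter of Fev-Cre;ROSA26mTmG embryos at E14.5 on a C57BL/6J background, made with the v2 kit from GFP+ cells and TdTomato+/GFP- cells. In that genotype, Cre made under the control of Fev, a gene of endocrine progenitors, turns a cell and its descendants from membrane TdTomato to membrane GFP. All other embryos carried no transgene. The CD140a sort removes Pdgfra-positive mesenchyme, so the mesenchyme of the v2 libraries is what that sort left. Dissociation took 10 min at E12.5, 15 min at E14.5 and 30 min at E17.5, so stage and dissociation time cannot be told apart.

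Hox genes sit in 4 genomic clusters that arose by duplication of an ancestral cluster, and genes at matching positions form paralog groups. Within a cluster, genes at the 3′ end are switched on first and reach farthest forward along the body axis, and genes towards the 5′ end are switched on later and farther back. Cells of the trunk keep the combination set at their level of origin, which is called their Hox code. Hox proteins bind DNA together with the TALE homeodomain proteins of the Pbx and Meis families, and Polycomb and trithorax proteins hold their clusters off or on. Pdx1, the master regulator of the pancreatic epithelium, belongs to the ParaHox genes, an evolutionary sister of the Hox clusters.

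HoxA holds 11 genes on the minus strand of chromosome 6. HoxB holds 10 genes on chromosome 11 (96194316 to 96368256 in build mm10, plus strand). HoxC holds 9 genes on chromosome 15 (102921103 to 103036852, plus strand), and HoxD holds 9 on chromosome 2 (74668310 to 74765142, plus strand). Paralog group 4 is shown by sequence because its members Hoxb4, Hoxc4 and Hoxd4 had their highest medians in different cell classes. Its other member, Hoxa4, led the group in none of the classes compared, and it had no window in the set used, so it is not printed. Hoxb4 had its highest median level in vascular smooth muscle and mesenchyme, Hoxc4 in mesothelial cells and Hoxd4 in neural crest. The 250 bases before each start are given 5′ to 3′ from RefSeq (GRCm38.p6), and the capitals mark TGACCT, which is AGGTCA read from the other strand, the half-site letters of retinoic acid and other nuclear receptors.
Hoxb4, chr11:96318017-96318266, plus strand: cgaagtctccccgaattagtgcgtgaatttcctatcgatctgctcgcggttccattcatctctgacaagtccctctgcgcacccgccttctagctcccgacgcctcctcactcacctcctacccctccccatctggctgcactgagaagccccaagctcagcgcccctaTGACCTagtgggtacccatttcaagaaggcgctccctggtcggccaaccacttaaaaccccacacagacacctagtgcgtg
Hoxc4, chr15:103034145-103034394, plus strand: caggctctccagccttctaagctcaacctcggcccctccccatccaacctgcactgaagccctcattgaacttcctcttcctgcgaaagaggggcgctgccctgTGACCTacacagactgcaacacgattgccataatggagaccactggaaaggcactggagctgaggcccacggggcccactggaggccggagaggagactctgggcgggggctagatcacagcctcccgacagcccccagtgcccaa
Hoxd4, chr2:74721728-74721977, plus strand: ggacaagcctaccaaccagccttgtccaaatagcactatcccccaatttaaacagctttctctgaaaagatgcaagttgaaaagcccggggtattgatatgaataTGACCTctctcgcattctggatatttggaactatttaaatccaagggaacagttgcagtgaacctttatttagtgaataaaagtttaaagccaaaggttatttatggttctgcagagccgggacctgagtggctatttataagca
The windows of Hoxc4 and Hoxd4 lie inside the annotated gene spans (103018934 to 103036852 and 74711929 to 74729160), so these starts are not the outermost ones. Each of these windows held 1 match. Over 24 windows of 22 Hox genes, 25% held AGGTCA on either strand, beside 14.0% of 32851 windows of the same length over all genes. A match is a description of the letters and was not tested for binding.

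The deposited matrices held 3849 to 13197 barcodes and 15671934 to 127151679 unique molecular identifiers (UMIs) each, with medians of 3084 to 10252 UMIs per barcode, and 57982 cells were kept. Libraries made with the same kit shared 19 to 156 barcodes pairwise, and libraries of different kits shared 0. Cell classes were set by clustering without the Hox genes or the noncoding transcripts of their clusters. Each class carried its own markers: the 7 mesenchymal markers summed to 1309 to 15566 CPM (UMIs per 1000000 UMIs of a class in a library) in mesenchyme and to 9.14 to 132 CPM in epithelium. The 7 endothelial markers summed to 3828 to 7166 CPM in endothelial cells and at most 182 CPM in the other main classes, and the 6 immune markers to 4355 to 6801 CPM in immune cells and at most 67.5 CPM in the other main classes. In subsets of these classes, endothelial markers reached 330 CPM (mast cells) and immune markers outside immune cells 139 CPM (neuronal cells). The 6 mesothelial markers ran lower, at 862 to 4181 CPM in mesothelial cells against 65.0 to 834 CPM in mesenchyme. Erythroid markers, mostly haemoglobins, reached 76826 CPM in endothelial cells, 62678 CPM in neural crest and 62293 CPM in immune cells, and their part in the Hox values was not tested. A class was used in a library with at least 20 cells. These reads count the 3′ ends of transcripts, so levels in CPM were not divided by transcript length.

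Over all kept cells, the 39 genes gave 92250 UMIs out of 515452755. At least 1 UMI was found for 33 of them. Hoxa5 (16752 UMIs), Hoxb4 (15559) and Hoxb2 (12041) led, 14 members had at least 1000 UMIs, 9 had at least 100 but under 1000, and 10 had 1 to 99. Hoxa13, Hoxc10, Hoxc11, Hoxc12, Hoxc13 and Hoxd11 had 0, which allows up to 0.00582 CPM over all cells. Members of groups 10 to 13, which pattern the posterior trunk, limbs and genitalia, were therefore near the limit of detection: Hoxa10 had 22 UMIs, Hoxd10 had 10, Hoxa11 and Hoxb13 had 3 each, and Hoxd12 and Hoxd13 had 1 each. Hoxc9 (14 UMIs), Hoxd1 (26) and Hoxc8 (32) were also rare. Counting limits apply to neighbouring genes: the annotation overlaps exons of Hoxd3 with Hoxd4 and of Hoxc5 with Hoxc10 on the same strand. Reads in the shared parts do not identify 1 gene, so the counts of either gene could be affected. Exons of Hoxa3, Hoxa7, Hoxb2, Hoxb3, Hoxb5, Hoxd3 and Hoxd4, among others, overlap a noncoding transcript on the opposite strand, and the sources used here do not say whether counting used strand.

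**Figure D1:**
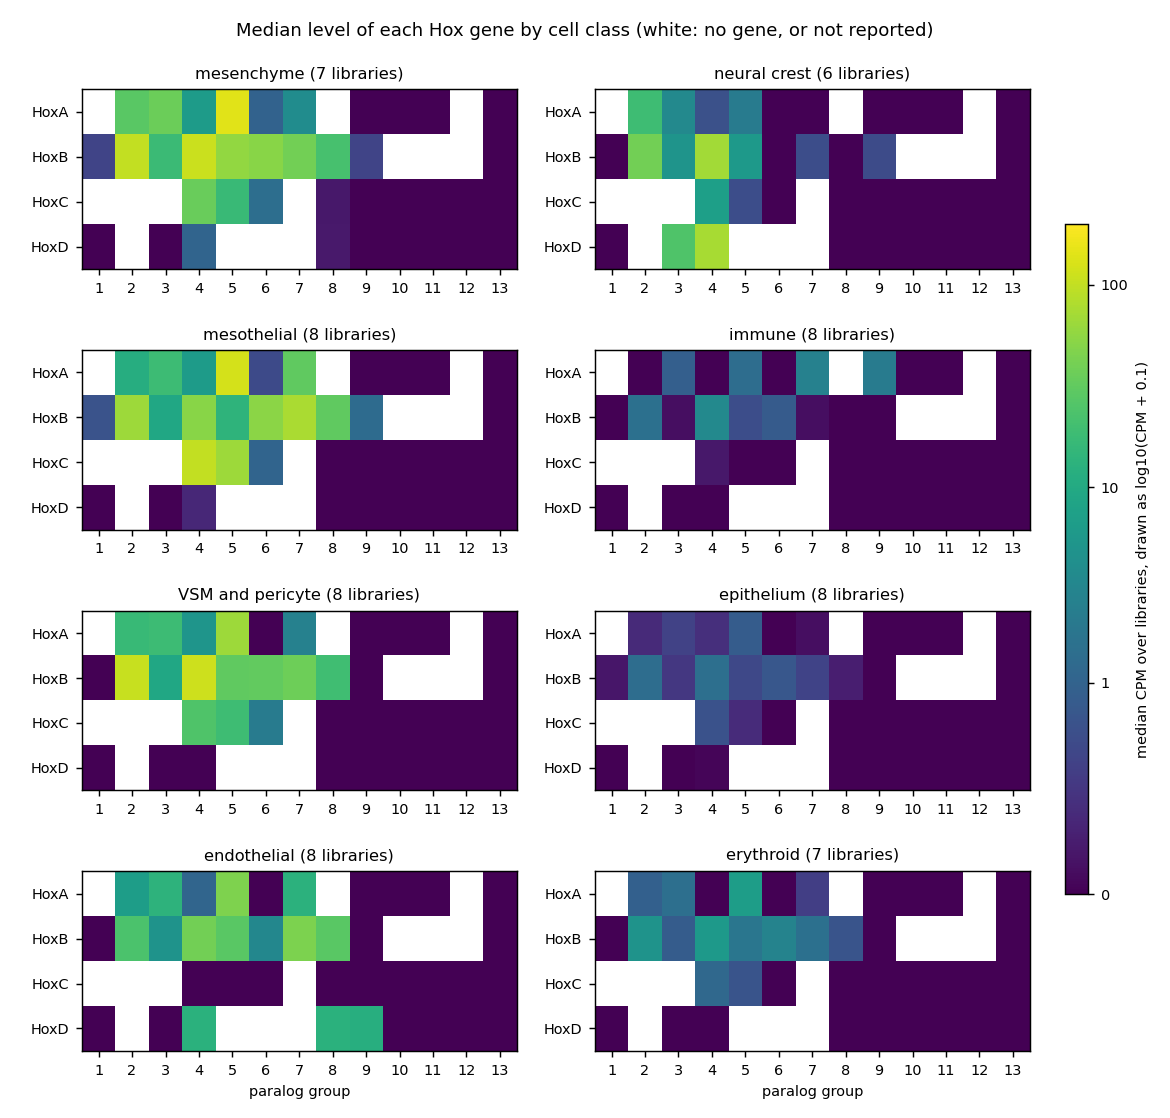
Median levels of Hox genes over libraries in 8 cell classes, with paralog group on the x axis and cluster on the y axis. Colour is log10(CPM + 0.1), and white fields have no gene or a gene not reported here. Mesodermal classes have most of their signal in groups 2 to 5 and 7 of HoxA, groups 2 to 8 of HoxB and groups 4 and 5 of HoxC. Endothelial cells have an empty HoxC row and Hoxd4, Hoxd8 and Hoxd9. Median signal of neural crest lies mainly in groups up to 5, with Hoxd3 and Hoxd4. Immune cells are low, with Hoxb4, Hoxa7 and Hoxa9 among their higher fields, and Hoxa9 is higher there than in any other class shown.

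The summed level of the 39 genes ordered the classes into a high and a low set. Mesenchyme had a median of 716 CPM (493 to 937, n = 7 libraries), and mesothelial cells, the sheet that covers the organ, had 709 CPM (321 to 1057, n = 8). Vascular smooth muscle (VSM) and pericytes, the mural cells of vessels, had 511 CPM (320 to 821, n = 8). The ranges of these 3 classes overlapped. In sums over a class, fewer cells and less RNA per cell cannot be told apart. Endothelial cells followed with 320 CPM (210 to 386, n = 8) and neural crest, the source of pancreatic glia and neurons, with 251 CPM (143 to 491, n = 6), and the ranges of these also overlapped. Erythroid cells had 35.2 CPM (9.38 to 82.3, n = 7), immune cells 19.2 CPM (6.76 to 42.5, n = 8) and epithelium 8.69 CPM (1.88 to 43.1, n = 8). No library of the last 3 classes reached any library of the first 5.

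A similar order was seen in single cells. Cells under 2000 UMIs were left out and the others were thinned to 2000 UMIs. In v1 libraries this left out up to 428 of 1335 mesenchymal cells (E14.5 batch 1) and 132 of 364 immune cells (E17.5). The share of cells with at least 1 Hox UMI was 57.8% to 80.2% in mesenchyme, 45.8% to 85.4% in mesothelial cells and 35.3% to 66.7% in endothelial cells. It was 23.7% to 52% in neural crest, 0.974% to 6.30% in immune cells and 0.493% to 4.94% in epithelium. Erythroid cells had 1.31% to 10.8%. Erythroid markers, mostly haemoglobins, made up 562429 to 881680 CPM of that class. Fewer of the 2000 UMIs of an erythroid cell thus came from other genes, so shares of erythroid and other cells are not like for like. No share of the whole immune class or of all epithelium exceeded the highest of erythroid cells. Within a library, the share in epithelium exceeded that of erythroid cells at E12.5 v1 (4.94% against 1.73%), and the share in immune cells did so in the E12.5 v1 (5.13% against 1.73%), E14.5 v1 batch 2 (6.30% against 6.15%) and E17.5 v2 (2.27% against 1.31%) libraries, with overlapping 95% Wilson intervals in each case. Parts of these classes stood higher: 13.4% of granulocytes (95% Wilson interval 8.00 to 21.6) and 5.24% of lymphoid cells (2.87 to 9.37) in the E17.5 v2 library had a Hox UMI, against 1.31% of erythroid cells (0.881 to 1.94), and so did 8.11% of endocrine cells (4.32 to 14.7) in the E12.5 v1 library, against 1.73% (0.741 to 3.99). Median depth per cell before thinning was 2303 to 5795 UMIs in mesenchyme, 3662 to 11178.5 in epithelium and 4480 to 13624.5 in erythroid cells. Without thinning and with cells under 2000 UMIs kept, the mean share over libraries was 86.4% in mesenchyme, 5.68% in epithelium and 13.4% in erythroid cells. Intervals for counts and shares cover counting error only.

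The low summed levels of epithelium and erythroid cells ran at percentages near those of mesenchymal markers. As a percentage of the mesenchyme of the same library, the summed Hox level was 0.454% to 4.60% in epithelium, and the summed level of the 7 mesenchymal markers was 0.241% to 3.59%. The corresponding ranges were 2.38% to 14.3% and 2.16% to 11.5% in erythroid cells, and 1.17% to 5.67% and 0.490% to 3.68% in immune cells. Immune cells did not follow the markers library by library: the highest Hox percentage, 5.67% in the E14.5 v1 batch 2 library, stood beside markers at 1.41%, and the E12.5 v1 library had 2.02% beside 3.11%. Endothelial cells and neural crest stood apart from this relation. Their Hox levels were 32.6% to 69.8% and 28.9% to 52.4% of mesenchyme, while their mesenchymal markers were 0.102% to 3.02% and 1.09% to 8.15%. The cluster make-up of epithelial Hox UMIs (medians of 23.4% HoxA, 63.0% HoxB, 9.89% HoxC and 1.13% HoxD) was near that of mesenchyme (29.8%, 60.6%, 8.05% and 0.204%). The part of mesenchymal RNA in the epithelial values was not tested.

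**Figure D2:**
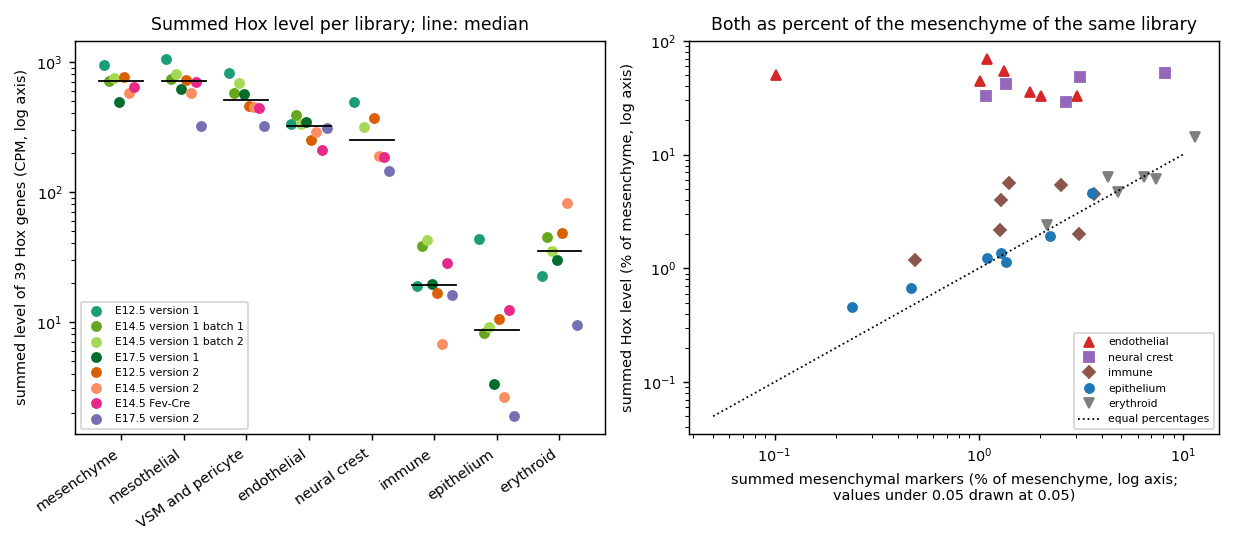
Left, summed level of the 39 Hox genes (CPM, log axis) in each class, with a point per library and a line at the median. Right, summed Hox level against the summed mesenchymal markers, both as a percentage of mesenchyme in the same library on log axes. Mesenchyme, mesothelial and mural cells lie at 320 to 1057 CPM, and on the right endothelial cells and neural crest lie far above the dotted line of equal percentages while epithelium and erythroid cells lie near it and immune cells scatter around it, mostly above.

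Each class was first compared with epithelium. In mesenchyme, all 18 members that passed the filter on low counts were called higher (edgeR quasi-likelihood test, Benjamini-Hochberg adjusted p below 0.05 and at least 2-fold), in a comparison where 15.7% of all genes were called higher. Members pass the filter through the class in which they are high, so this count is over those 18, with a median log2 fold of 5.99 against -0.05 over all genes tested. Hoxa5, a regulator of foregut and lung mesenchyme, had a median of 144 CPM in mesenchyme and 0.80 CPM in epithelium, a log2 fold of 6.59 ± 0.40 (SE, 7 libraries, adjusted p = 8.11e-07). Hoxb4, best known from blood stem cells, differed by 6.01 ± 0.29 (adjusted p = 2.08e-07) and Hoxb2, a hindbrain gene, by 5.80 ± 0.26 (adjusted p = 1.29e-07). For each of them, every library of mesenchyme exceeded every library of epithelium. Hoxd4 had the smallest called difference, 3.65 ± 0.72, at a median of 1.05 CPM in mesenchyme. Hoxa6 and Hoxc6 rested on 3 and 2 UMIs in epithelium, which gives ratios of 88 (95% counting interval 29.1 to 435) and 149 (40.1 to 1246).

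In mesenchyme, groups 4 and 5 took the largest share of Hox UMIs, with a median of 54.3%, followed by groups 1 to 3 with 26.9% and groups 6 to 8 with 17.1%. Groups 9 to 13 took 0.0509%. Hoxb4 ranged from 74.8 CPM in the E14.5 v2 library to 205 CPM in the E12.5 v1 library, with a median of 110 CPM. Hoxa5 ranged from 61 to 178 CPM, again lowest in the E14.5 v2 library and highest in the E12.5 v1 library. Hoxb2 ranged from 66.9 to 169 CPM between the same libraries. The E14.5 v2 library rests on 93 mesenchymal cells left by the CD140a sort. Hoxc4 was the steadiest of the abundant members, at 29.7 to 39.9 CPM in 6 libraries and 59.0 CPM in the E14.5 v2 library. Hoxa7, a trunk gene, stood apart in 2 libraries: it was 35.3 and 19.7 CPM in the E12.5 and E14.5 v2 libraries and 1.53 to 3.93 CPM in the other 5. Both high libraries were depleted of CD140a-positive cells, and the Fev-Cre library, made with the same kit without that depletion but from another strain, stood at 3.03 CPM. The part of the sort in these levels was not tested. The mesenchyme of these 2 libraries also carried more mesothelial markers (435 and 834 CPM in sum, against 65.0 to 105 CPM in the other 5), and 53.7% and 82.8% of its cells lay in clusters that a wider mesothelial class takes in.

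Mesenchyme itself was not uniform. Its clusters were found without Hox genes, and their Hox levels are given here without a test. The clusters named are a selection, and the levels of the others are not given. The Adrb3-led cluster below is the one with the highest summed Hox level in its libraries, so gaps to it are widened by that choice. In the E12.5 v2 library, a cluster of 1037 cells led by Oprk1, Lrp1b and Rprm had 65.3 CPM of Hoxa7 (95% Poisson interval 58.8 to 72.3) and 58.8 CPM of Hoxa5 (52.7 to 65.5). A cluster of 879 cells led by Gap43 and Syt6 in the same library had 3.72 CPM of Hoxa7 (2.17 to 5.96) and 216 CPM of Hoxa5 (203 to 230). Hoxa7 was thus higher and Hoxa5 lower in the first cluster than in the other, by more than the counting intervals. Hoxc4 went with Hoxa7, at 52.1 CPM (46.4 to 58.4) in the first cluster and 15.1 CPM (11.8 to 19.1) in the other. The first cluster is one of those counted as mesothelial in the wider class, and Hoxa7 and Hoxc4 are also the genes higher in mesothelial cells. In the v1 libraries, a cluster led by Nkx2-5 and Slc40a1 had low levels of some members, with 28.5 CPM of Hoxa5 (18.5 to 42.1) at E12.5, and 17.51 CPM (3.61 to 51.2) and 10.1 CPM (2.08 to 29.5) in the E14.5 batches. A cluster led by Adrb3 and Fam162b, the one with the highest summed Hox level among the mesenchymal clusters of these libraries, had 273, 307 and 193 CPM of Hoxa5 in the same libraries. Summed over all members, the Nkx2-5-led cluster had 428, 274 and 198 CPM and the Adrb3-led cluster 1341, 1111 and 938 CPM. Other members were closer, with Hoxb2 at 103, 123 and 60.5 CPM against 222, 208 and 74.0 CPM, and Hoxb3 at 25.1, 17.51 and 0 CPM against 17.2, 18.1 and 28.8 CPM.

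Nkx2-5 and Tlx1 are regulators of the splenic mesenchyme that borders the dorsal pancreas. No cluster reached the markers needed for that name, so mesenchymal cells with at least 1 UMI of either gene were compared with the rest of the mesenchyme. These were 912 cells at E12.5 v1, 170 and 351 in the E14.5 v1 batches, 43 at E17.5 v1, 306 at E12.5 v2 and 341 in the Fev-Cre library. With a limit of 1 UMI, either group can hold cells of the other kind. Hoxa5, low in the Nkx2-5-led cluster above, was not among the called members. Of 15 members tested, 2 were called lower, where 0.842% of all genes were called lower, and 0 of 15 were called higher, where 0.238% of all genes were. Hoxa7 had 0 to 11.7 CPM in Nkx2-5- or Tlx1-positive cells and 1.78 to 38.9 CPM in the others, a log2 fold of -1.35 ± 0.25 (6 libraries, adjusted p = 0.00063). Hoxb8, a trunk gene, had 0 to 21.4 CPM against 11.5 to 54.3 CPM, a log2 fold of -1.0 ± 0.15 (adjusted p = 4.79e-05). That fold lies at the 2-fold limit, and the Hoxb8 call was lost in 10 of the other settings tried and the Hoxa7 call in 4. The groups overlapped for both, and Hoxa7 was lower in 5 and Hoxb8 in 6 of 6 libraries. Hoxc4, at 18.7 to 26.8 CPM against 33.3 to 57.0 CPM, differed by -0.72 ± 0.11 (adjusted p = 9.21e-05), which is under 2-fold. The count was 0 without the E12.5 v2 library and 1 without the E14.5 v1 batch 1, E14.5 v1 batch 2 or E17.5 v1 library. It was also 0 without the library block, and 0 with the wider mesothelial class, where Hoxa7 differed by -0.45 (adjusted p = 0.572) and Hoxb8 by -0.81, which is under 2-fold.

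Mesothelial cells differed from mesenchyme in single members, with more HoxC. Of 15 members tested, 3 were called higher (8.14% of all genes) and 2 lower (6.35% of all genes). The higher members were the 2 abundant HoxC genes and Hoxa7. Levels given for mesothelial cells, here and for the lower members, cover 8 libraries and those for mesenchyme 7. The E17.5 v2 library had 5 mesenchymal cells, so it is not in the folds. Hoxc4 had a lowest, median and highest level of 42.6, 99.3 and 127 CPM in mesothelial cells and 29.7, 35.5 and 59.0 CPM in mesenchyme. In each of the 7 libraries with both classes it was higher in mesothelial cells, by a log2 fold of 1.42 ± 0.16 (adjusted p = 0.00017). Hoxc5 had 10.6, 65.3 and 89.9 CPM against 6.04, 17.2 and 35.4 CPM, a log2 fold of 1.96 ± 0.21 (adjusted p = 0.000125). Hoxa7 had 5.52, 31.2 and 47.6 CPM against 1.53, 3.92 and 35.3 CPM, a log2 fold of 2.46 ± 0.47 (adjusted p = 0.00337). HoxC thereby made up a median of 22.5% of mesothelial Hox UMIs (17.1% to 29.9%) and 8.05% of mesenchymal ones (4.76% to 16.7%), with no overlap of the ranges.

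Hoxb5, a gene of enteric crest and gut mesenchyme, was lower in mesothelial cells, at 5.52 to 30.6 CPM against 26.5 to 89.1 CPM, a log2 fold of -1.65 ± 0.21 (adjusted p = 0.000425). Hoxa2 was lower by -1.11 ± 0.22 on the log2 scale (adjusted p = 0.00444), at 6.42 to 18.7 CPM against 13.8 to 33.8 CPM. The classes overlapped for both genes. Hoxb7 (0.90) and Hoxb4 (-0.90) passed the adjusted p but not the 2-fold limit. Hoxa5 had a log2 fold of 0.04 ± 0.22 and was not called (adjusted p = 0.937). Within the mesothelial class, 2 clusters of the E12.5 v2 library led by Crabp1 had 1.40 CPM (0.382 to 3.59) and 1.37 CPM (0.166 to 4.94) of Hoxa7, while the other mesothelial clusters of that library had 52.6 to 96.4 CPM. The Crabp1-led clusters had more Hoxc4, at 96.8 and 111 CPM against 48.5 to 58.6 CPM. Hoxa7 was not called without the library block (adjusted p = 0.118), nor Hoxa2 without the Fev-Cre library (-0.90, under 2-fold). A wider mesothelial class, which adds clusters of weaker marker scores, gave 8 called members in place of 5.

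Mural cells, the VSM and pericyte class, had few called differences from mesenchyme. Of 15 members tested, 2 were called lower (2.33% of all genes) and 0 higher (2.76% of all genes), with 7 members at an unadjusted p under 0.05, and DESeq2 called 1 lower and 0 higher. Hoxa5 had 35.1 to 79.7 CPM in mural cells against 61 to 178 CPM in mesenchyme, a log2 fold of -1.05 ± 0.15 (7 libraries, adjusted p = 0.0016). Hoxb4 and Hoxb2 had medians of 111 and 105 CPM in mural cells and 110 and 99 CPM in mesenchyme. HoxB made up 67.1% of mural Hox UMIs. The count was 0 without the E12.5 v2 library and 1 without E12.5 v1, either E14.5 v1 batch or the Fev-Cre library.

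**Figure D3:**
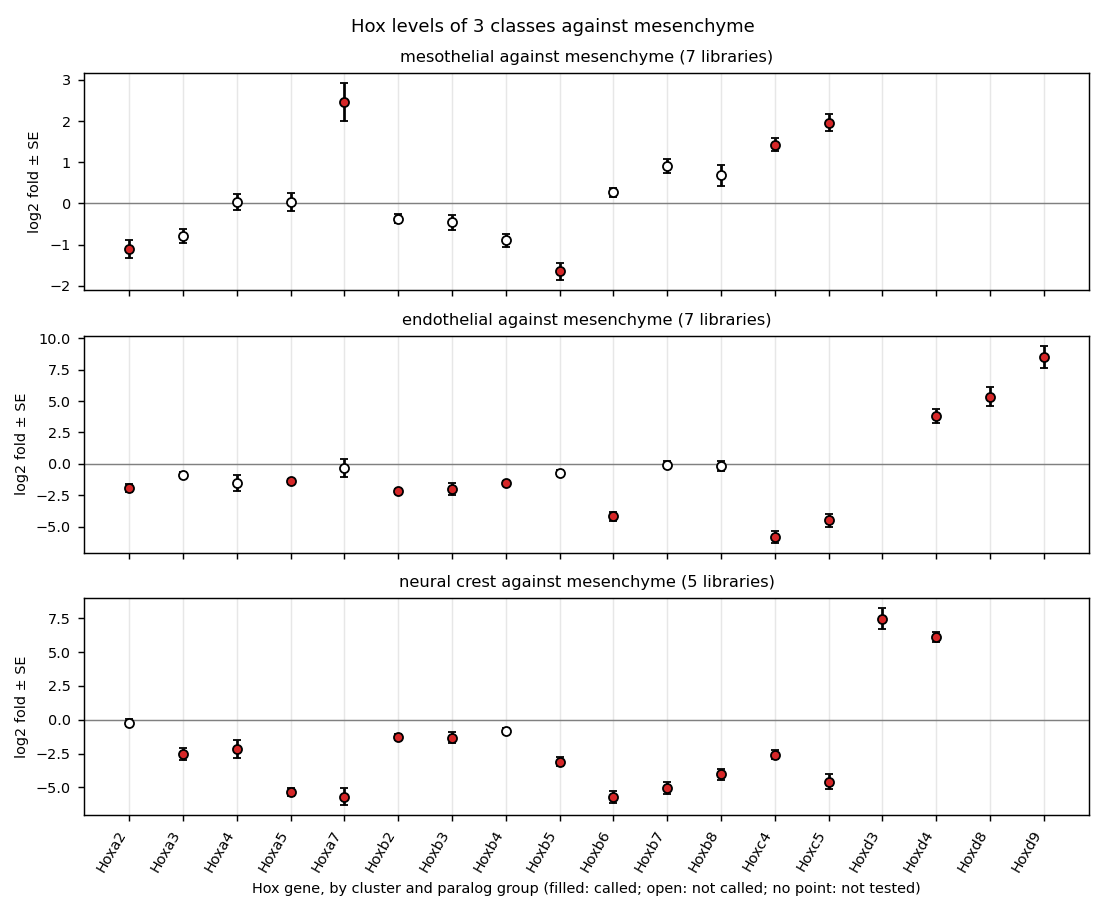
Log2 fold (y axis, ± SE) of the tested Hox genes reported here in mesothelial cells (7 libraries), endothelial cells (7) and neural crest (5) against mesenchyme, with genes ordered by cluster and paralog group. Filled points were called. Hoxc4 and Hoxc5 are higher in mesothelial cells and lower in the other 2 classes, Hoxd4, Hoxd8 and Hoxd9 are higher in endothelial cells, and Hoxd3 and Hoxd4 are the only filled points above 0 in neural crest.

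Endothelial cells had almost no HoxC UMIs, and their HoxD UMIs came mainly from Hoxd4, Hoxd8 and Hoxd9. The lining of vessels is known to use Hox genes during vessel growth, among them Hoxd3 and Hoxa5. Against epithelium, all 16 members that passed the filter were called higher, where 13.4% of all genes were. Members pass it through the class in which they are high, so this count is over those 16. Without the filter, 20 of 28 were called higher, where 5255 of 21343 genes were called in either direction. Against mesenchyme, 3 of 17 were higher (10.6% of all genes) and 8 lower (14.8%), with a median log2 fold of -1.39 against -0.08 over all genes. The 3 higher members were Hoxd4, Hoxd8 and Hoxd9, neighbours on chromosome 2 (Hoxd9 at 74697727 to 74700208, Hoxd8 at 74704615 to 74707933 and Hoxd4 at 74711929 to 74729160).

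Hoxd4 was found in endothelial cells of all 8 libraries, at 4.23, 12.8 and 30.0 CPM (lowest, median, highest), and in mesenchyme at 0.336, 1.05 and 1.97 CPM, a log2 fold of 3.81 ± 0.58 (7 libraries, adjusted p = 8.21e-05). No library of the classes overlapped. Exons of Hoxd4 overlap those of Hoxd3 on the same strand and those of the noncoding Hoxd3os1 on the opposite strand. Hoxd3os1 was also higher in endothelial cells than in mesenchyme, and its part in the Hoxd4 counts was not tested. Hoxd8 had 0, 12.9 and 39.6 CPM and differed by 5.36 ± 0.73 (adjusted p = 3.23e-05). It was at 0 in the E12.5 v1 library, which holds 24 endothelial cells, and mesenchyme had 0 to 1.93 CPM. Hoxd9 had 0, 11.6 and 69.4 CPM, with 0 in the E12.5 v1 and Fev-Cre libraries of 24 and 25 endothelial cells. Mesenchyme had no Hoxd9 UMI in any library, so with a floor of 3 UMIs over the class the gene was at least 253-fold higher in endothelial cells (adjusted p = 7.15e-05). Against epithelium, with 1 Hoxd9 UMI, the ratio was 4443 (95% counting interval 777 to 177500).

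Hoxd10 and Hoxb9 were found in endothelial cells at E17.5. All 9 endothelial Hoxd10 UMIs, 3.91 CPM (95% Poisson interval 1.79 to 7.43), came from the E17.5 v2 library. Hoxb9 was at 0 in endothelial cells of the 6 libraries up to E14.5, and at 14.0 CPM (4.54 to 32.6) and 9.13 CPM (5.65 to 14.0) in the E17.5 v1 and v2 libraries. Epithelium had no Hoxb9 UMI, so endothelial cells were at least 438-fold higher with the floor of 3 UMIs (edgeR adjusted p = 0.000132, DESeq2 adjusted p = 0.074). The endothelial cells of the earlier libraries allow up to 1.65 to 29.7 CPM at 3 UMIs, so a like level was not detectable in most of them. The stage fit did not include these genes, which were filtered out for low counts, so the change with stage was not tested.

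The lower members in endothelial cells were led by HoxC. Only 2 Hoxc4 UMIs and 3 Hoxc5 UMIs were found in the 7 libraries compared, so mesenchyme was 53.4-fold (95% counting interval 14.8 to 441) and 19.0-fold (6.49 to 92.4) higher, with adjusted p of 8.95e-08 and 6.31e-06. Over all 8 libraries, HoxC gave 6 UMIs. Hoxb6, a gene of lateral plate mesoderm, was at 0 to 9.91 CPM in endothelial cells and 21.5 to 65.4 CPM in mesenchyme, a log2 fold of -4.16 ± 0.36 (adjusted p = 2.3e-07). The neighbours of Hoxb6 in the cluster were not called. Hoxb7 had medians of 44.6 CPM in endothelial cells and 39.8 CPM in mesenchyme, a log2 fold of -0.05 ± 0.27, and Hoxb5 had 28.3 and 57.5 CPM, -0.73 ± 0.28 (adjusted p = 0.0501). Hoxb2 (-2.17 ± 0.21, adjusted p = 6.58e-07), Hoxb4 (-1.51 ± 0.18, adjusted p = 1.02e-05) and Hoxa5 (-1.39 ± 0.22, adjusted p = 0.000116) were lower, as were Hoxb3 (-2.02) and Hoxa2 (-1.92). Hoxb8 and Hoxa7 differed by -0.19 and -0.30 and were not called. Without the E12.5 v2 library, the largest with 213 endothelial cells before E17.5, 7 members were called in place of 11, with 1 higher.

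Neural crest carried an anterior code with HoxD genes of groups 3 and 4. Neural crest cells reach the pancreas through the gut and form its glia and neurons. Groups 1 to 3 gave a median of 37.3% and groups 4 and 5 gave 62.3% of its Hox UMIs, and groups 6 to 8 gave 0.769% (0 to 4.96%). Groups 9 to 13 gave 0.125% (0 to 4.96%), with 12 UMIs of Hoxb9 and 3 of Hoxb13 in the class. In glial cells groups 9 to 13 gave a median of 3.51% (0 to 7.89%). HoxD made up 36.1% (18.5% to 51.9%), against 14.2% in endothelial cells and 0.204% in mesenchyme. Against epithelium, 9 of 10 members tested were called higher (11.6% of all genes). Members pass the filter through the class in which they are high, so this count is over those 10. Without the filter, 13 of 29 were called higher, where 3695 of 21309 genes were called in either direction. Against mesenchyme, 2 of 17 were higher (7.41%) and 13 lower (10.9%), with a median log2 fold of -2.59 against -0.11 over all genes tested.

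Hoxd4 stood at 83.1 and 108 CPM in the E12.5 v1 and v2 libraries, at 69.8, 78.6 and 54.4 CPM in the E14.5 Fev-Cre, v1 batch 2 and v2 libraries and at 35.6 CPM in the E17.5 v2 library. Every value exceeded those of mesenchyme and of endothelial cells. The log2 fold against mesenchyme was 6.09 ± 0.36 (5 libraries, adjusted p = 1.42e-08) and against epithelium 9.73 ± 0.30 (6 libraries, adjusted p = 1.02e-09). Hoxd3 had 0, 22.8, 25.6, 36.3, 26.1 and 6.10 CPM in the same order, with the 0 in the E12.5 v1 library of 25 crest cells. It differed from mesenchyme, with 5 UMIs over all libraries, by 7.49 ± 0.77 (adjusted p = 3.74e-06). In epithelium it had 2 UMIs, a ratio of 2777 (95% counting interval 756 to 23130). Exons of Hoxd3 and Hoxd4 overlap, and reads in the shared parts do not identify 1 gene, so either value could be affected.

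The tested members not called against mesenchyme were Hoxa2, which patterns cranial crest, and Hoxb4. Hoxa2 had 8.13 to 30.2 CPM, a log2 fold of -0.22 ± 0.28 that was not called (adjusted p = 0.693), and Hoxb4 had 9.15 to 189 CPM, -0.81 ± 0.21 (adjusted p = 0.0103), which is under 2-fold. All tested members of groups 5 to 8 were called lower. Hoxa5 was at 0 to 6.04 CPM against 61 to 178 CPM in mesenchyme, a log2 fold of -5.33 ± 0.28 (adjusted p = 4.57e-09). Hoxb6 (-5.72 ± 0.42, adjusted p = 1.26e-07), Hoxb7 (-5.01 ± 0.44, adjusted p = 8.25e-07) and Hoxa7 (-5.68 ± 0.64, adjusted p = 9.12e-06) were also lower. So were Hoxb8 (-4.04), Hoxc5 (-4.59), Hoxb5 (-3.12) and Hoxc4 (-2.59), and differences were called for Hoxa3, Hoxa4, Hoxb2 and Hoxb3 (-2.54 to -1.26), of which Hoxb3 and Hoxa4 were lost in 9 and 5 of the other settings tried. Hoxa5 did not pass the test against epithelium either (1.43, adjusted p = 0.189).

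Neurons and glia, the 2 kinds of crest cell, could be set side by side in the 3 v2 libraries of Swiss Webster embryos, without a test, the smallest sets being 24 neuronal cells at E17.5 and 30 glial cells at E14.5. Hoxd3 was at 34.4, 35.6 and 14.6 CPM in neuronal cells of the E12.5, E14.5 and E17.5 embryos and at 9.23, 6.65 and 2.82 CPM in glial cells. Hoxd4 was at 141, 71.2 and 40.2 CPM in neuronal cells and at 68.2, 20 and 33.8 CPM in glial cells. Both values were higher in neuronal cells of all 3 libraries, with 95% Poisson intervals that lay apart at E12.5 but overlapped at E14.5 and E17.5. At E17.5, Hoxd4 rested on 11 neuronal and 24 glial UMIs and Hoxd3 on 4 and 2. Hoxb4 was at 150, 51.8 and 7.30 CPM in neuronal cells and 91.5, 20 and 9.86 CPM in glial cells, with 2 neuronal and 7 glial UMIs at E17.5.

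**Figure D4:**
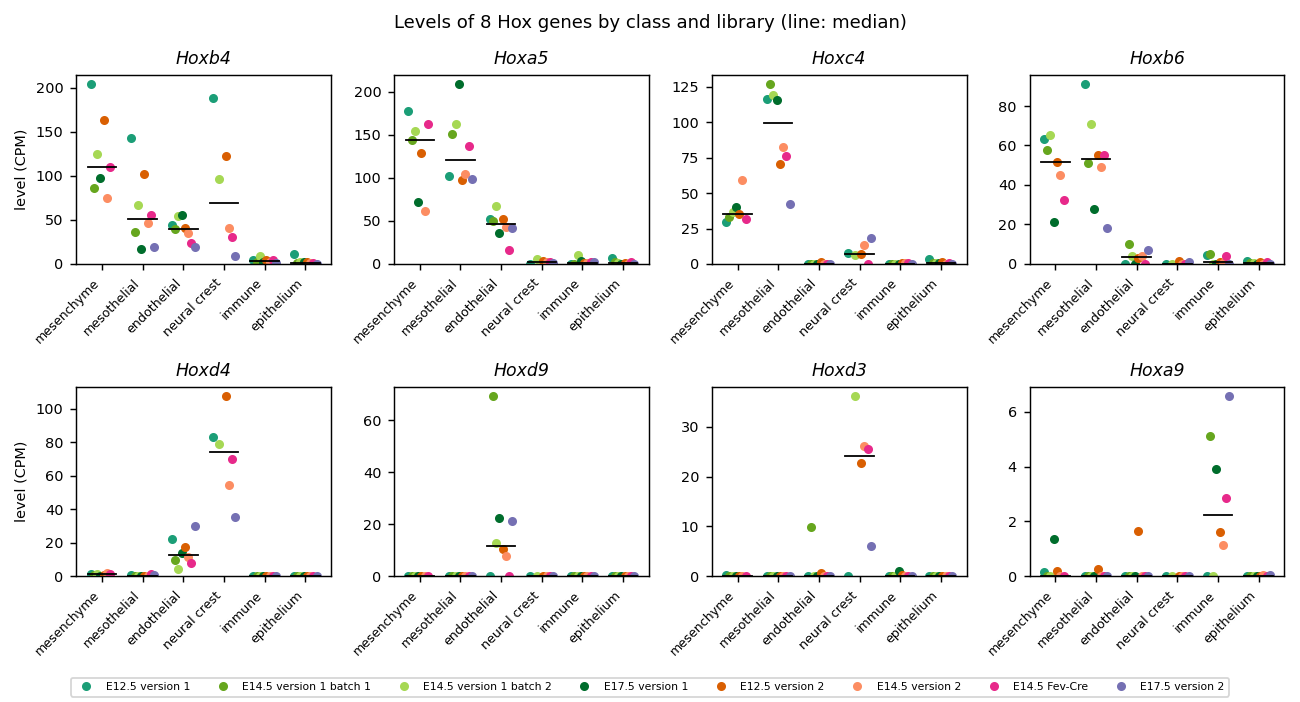
Levels (CPM, linear axes starting at 0) of 8 Hox genes in 6 cell classes, with a point per library and a line at the median. Hoxb4 is seen in mesenchyme, mesothelial cells, endothelial cells and neural crest, and Hoxa5 in the same classes except neural crest, where it is low. Hoxc4 is highest in mesothelial cells, Hoxd9 is seen in endothelial cells, and Hoxd3 and Hoxd4 are highest in neural crest. Hoxa9 is highest in immune cells, where it reaches 6.58 CPM.

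Immune cells had Hoxa9, a gene of blood progenitors, and its neighbour Hoxa7. Of 6 members tested against epithelium, 4 were called higher, where 18.2% of all genes were. Without the filter, 7 of 27 were called higher, where 7072 of 21620 genes were called in either direction. Hoxa9 had 0, 2.23 and 6.58 CPM (lowest, median, highest of 8 libraries) against at most 0.046 CPM in epithelium, a log2 fold of 6.99 ± 0.68 (adjusted p = 6.71e-06). Hoxa7 had 0, 2.75 and 9.10 CPM against at most 0.231 CPM, a log2 fold of 4.92 ± 0.63 (adjusted p = 3.32e-05). Of the 151 Hoxa9 UMIs in all cells, 122 were in immune cells, and the erythroid level of Hoxa9 was at most 0.0374 CPM. Hoxb4 (1.39 ± 0.36, adjusted p = 0.00451) and Hoxb6 (1.61 ± 0.55, adjusted p = 0.0245) were also called, but their medians of 3.51 and 0.79 CPM lay below those of erythroid cells (5.79 and 2.90 CPM). The count was 1 without the E12.5 v2 library and 1 without the E17.5 v2 library.

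In the E17.5 v2 library, the highest levels were in granulocytes. These 97 cells had 57.5 CPM of Hoxa9 (95% Poisson interval 44.3 to 73.4), 24.3 CPM of Hoxa7 (16.0 to 35.3) and 6.29 CPM of Hoxa10 (2.53 to 13). In the same library, 191 lymphoid cells had 12.47 CPM of Hoxa9 (7.39 to 19.7) and 11.8 CPM of Hoxa7 (6.86 to 18.9), and 937 macrophages had 0.503 CPM (0.163 to 1.17) and 0.704 CPM (0.283 to 1.45). HoxA made up 95.6% of granulocyte and 91.3% of lymphoid Hox UMIs. The 30 granulocytes of the E17.5 v1 library had 0 UMIs of these genes, which allows up to 46.8 CPM at 3 UMIs and up to 57.6 CPM by the Poisson interval.

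Epithelium had low levels of the genes that lead in mesenchyme. Hoxb4 had 0.357, 1.53 and 10.8 CPM (lowest, median, highest of 8 libraries), Hoxb2 had 0.473, 1.42 and 8.76 CPM and Hoxa5 had 0, 0.80 and 6.74 CPM. The highest value of each was in the E12.5 v1 library, where 268 epithelial cells stood among 3253 mesenchymal cells. No tested member was called higher in epithelium than in mesenchyme, mesothelial, endothelial, immune or neural crest cells by edgeR, where 17.4%, 15.5%, 19.6%, 21.8% and 13.1% of all genes were. With classes set by marker UMIs in each cell, 1 was higher in epithelium and 1 in immune cells. Mesothelial cells had a called excess over epithelium of all 16 members tested (15.4% of all genes), from Hoxa7 (8.06 ± 0.28, adjusted p = 2.4e-09) to Hoxb1 (2.84 ± 0.85, adjusted p = 0.0168). Members pass the filter through the class in which they are high, so this count is over those 16. Without the filter, 21 of 28 were called higher, where 5428 of 21665 genes were called in either direction.

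Change with stage was tested from E12.5 to E17.5, with the kit as a term and without the Fev-Cre library. In mesothelial cells, 8 of 15 members were called lower with stage, where 4.83% of all genes were, and 0 were higher, where 9.34% of all genes were. The median over the members tested was -1.23 on the log2 scale, against -0.15 over all genes tested. The log2 changes given here span 5 days. Hoxb8 fell by 3.84 ± 0.49 on the log2 scale (7 libraries, adjusted p = 0.000224), from 87.4 and 53.9 CPM at E12.5 (v1 and v2) through 15.0, 39.8 and 22.6 CPM at E14.5 (v1 batch 1, v1 batch 2 and v2) to 5.52 and 3.66 CPM at E17.5. Hoxb4 fell by 2.55 ± 0.37 (adjusted p = 0.000584), from 144 and 102 CPM through 36.2, 67.4 and 46.3 CPM to 16.5 and 19.4 CPM. The stages did not overlap for either gene. Hoxb5 fell by 2.39 ± 0.41 (adjusted p = 0.00166) and Hoxa7 by 1.93 ± 0.37 (adjusted p = 0.00409), and Hoxb6 fell by 1.60 ± 0.36 (adjusted p = 0.0096). Hoxc5 fell by 2.01 ± 0.53 (adjusted p = 0.0237), Hoxb3 by 1.71 ± 0.48 (adjusted p = 0.0328) and Hoxb2 by 1.23 ± 0.35 (adjusted p = 0.0321). These last 3 calls were the least stable, lost in 4, 6 and 6 of the other settings tried.

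Of the 8 called members, 6 lie in HoxB, which held 7 of the 15 tested. Hoxa5 (0.55 ± 0.30, adjusted p = 0.268), Hoxc4 (-0.37 ± 0.33, adjusted p = 0.513) and Hoxb7 (-0.44 ± 0.35, adjusted p = 0.461) were not called. Hoxa5 stood at 102 and 97.4 CPM at E12.5 and at 210 and 99 CPM at E17.5. The E17.5 v1 library rests on 48 mesothelial cells. The mesothelial class was made up of different clusters at each stage: in the v1 libraries no cluster with at least 20 cells was shared between stages, and in the v2 libraries the 2 clusters led by Cdc20 and Rrm2, genes of dividing cells, were the only ones found at every stage. From E12.5 through E14.5 to E17.5, Hoxb8 stood at 71.4, 29.4 and 3.98 CPM in the Cdc20-led and at 64.5, 38.5 and 2.69 CPM in the Rrm2-led cluster, and Hoxb4 at 67.1, 50.4 and 20.4 CPM and at 80.1, 30.8 and 12.1 CPM. In these 2 clusters both genes were lower at each later stage, which is a description of 3 libraries with no test. Genes of dividing cells lead these clusters, so each can pool different kinds of mesothelial cell at each stage. The part of class make-up in the fall with stage was not tested. The count was 3 without the E17.5 v2 library, 5 without the E17.5 v1 library and 5 without the E12.5 v2 library, and with classes set by marker UMIs in each cell, which left 5 libraries, it was 0.

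In mesenchyme, 0 of 16 members were called with stage by edgeR, where 1.47% of all genes were called lower and 4.21% higher. At an unadjusted p under 0.05, 8 members passed, DESeq2 called 2 lower, and with classes set by marker UMIs 4 were called lower. The median over the members tested was -0.72 on the log2 scale, against -0.03 over all genes. The v1 libraries of E12.5, E14.5 batch 2 and E17.5 form 1 collection batch, and with collection batch as terms edgeR called 1 member lower in mesenchyme and 2 in epithelium. Hoxb5 came nearest to the threshold (-1.46 ± 0.37, adjusted p = 0.0542), from 89.1 and 57.5 CPM at E12.5 to 26.5 CPM in the only E17.5 library with enough mesenchyme. The change with stage was not shown to differ between mesothelial cells and mesenchyme: a stage-by-class term, added after the stage fits were seen, called 0 of 15 members in 6 libraries, where 0.13% of all genes were called and 5 members had an unadjusted p under 0.05. The smallest p was that of Hoxa5 (1.94 ± 0.40, unadjusted p = 0.000864, adjusted p = 0.169). In epithelium, 0 of 3 members tested were called (0.732% of all genes lower and 2.69% higher), 2 had an unadjusted p under 0.05 and DESeq2 called 1, with Hoxa5 at -3.55 ± 0.97 (adjusted p = 0.0936), and without the E14.5 v1 batch 1 library 6 of the 11 members then tested were called lower, where 1128 of 15178 genes were called in either direction. In endothelial cells, 0 of 4 were called by edgeR or DESeq2 (0.551% of all genes lower and 2.64% higher), 0 had an unadjusted p under 0.05, and the changes ran from -0.43 to 0.65 on the log2 scale.

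**Figure D5:**
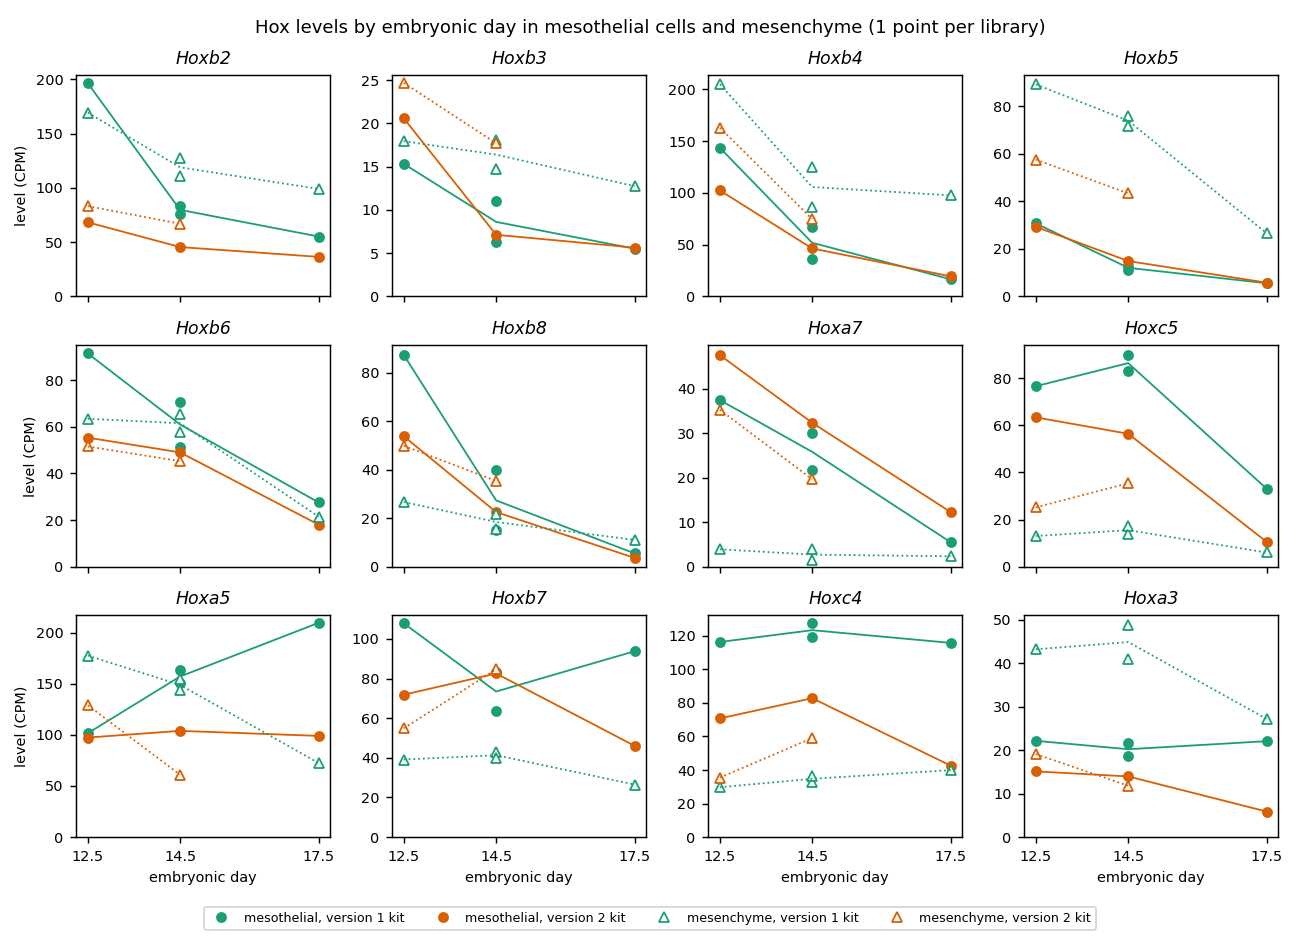
Levels (CPM, linear axes starting at 0) of 12 Hox genes by embryonic day (E12.5 to E17.5), with a point per library, filled circles for mesothelial cells and open triangles for mesenchyme, and lines through the means of each kit. The panels for the 8 members called in mesothelial cells come first. Hoxb8 falls from 87.4 and 53.9 CPM to 5.52 and 3.66 CPM in mesothelial cells, while Hoxa5, Hoxb7, Hoxc4 and Hoxa3 were not called.

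Other genes of the Hox system were taken from lists of cofactors, sister genes, chromatin regulators and noncoding transcripts. Of 9 TALE cofactors, 4 were higher in mesenchyme than in epithelium (15.7% of all genes), among them Meis1 (2.22 ± 0.15), Meis3 (1.32 ± 0.22) and Pknox2 (4.34 ± 0.40). Meis1 had medians of 169 CPM in mesenchyme, 179 CPM in mesothelial cells and 32.6 CPM in epithelium. In endothelial cells, 4 of 7 tested were lower than in mesenchyme (14.8% of all genes) and the other 3 were not called. The lower ones included Meis1, by -3.97 ± 0.26 (adjusted p = 1.03e-08), Meis3 by -4.80 ± 0.46 and Meis2 by -2.66 ± 0.24. Their medians in endothelial cells were 9.15, 0.435 and 34.6 CPM. Neural crest was low in Meis2 (10.8 CPM, -4.55 ± 0.34, adjusted p = 1.64e-07) while Meis1 (85.6 CPM, -0.99) was under 2-fold and Meis3 (50.3 CPM, 0.44) was not called, and Pknox2 was also lower there. In immune cells 5 of 8 cofactors tested were lower than in epithelium (21.8% of all genes), among them Pbx3, Pbx4, Meis2 and Meis3. Mesothelial cells were lower than mesenchyme in Meis3 and Pknox2 (both -1.99).

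The ParaHox gene Pdx1 marked epithelium, at a median of 153 CPM against 1.05 CPM in mesenchyme (-6.31 ± 0.45, adjusted p = 2.12e-06), and served as an epithelial marker here, so its direction is not independent. Gsx1 and Cdx2 were also lower in mesenchyme, at epithelial medians of 0.295 and 0.30 CPM. Evx1 and Evx2, which border the HoxA and HoxD clusters, did not pass the filter in any comparison. The 9 chromatin regulators of Hox clusters included the Polycomb genes Ezh2, Eed, Suz12, Bmi1, Rnf2 and Cbx2 and the trithorax genes Kmt2a and Men1. Of these 9, 0 were called in 9 of the 10 comparisons between classes. In those comparisons 0.238% to 15.7% of all genes were called higher and 0.842% to 19.6% lower. Both shares were smallest for Nkx2-5- or Tlx1-positive cells, where a count of 0 says little. Cbx2 was lower in immune cells than in epithelium (1 of 9 tested, beside 21.8% of all genes). With stage, Ezh2 (-1.13 ± 0.29, adjusted p = 0.0213) and Cbx2 (-2.30 ± 0.53, adjusted p = 0.0111) fell in mesothelial cells, as did Pbx3, Meis2, Meis1 and Pbx2 of the cofactors, which makes 2 of 9 regulators and 4 of 9 cofactors tested beside 4.83% of all genes. In mesenchyme Pbx3 (-2.23 ± 0.52, adjusted p = 0.0386) and Meis2 (-1.69 ± 0.36, adjusted p = 0.0264) fell with stage.

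Of 12 noncoding transcripts of the clusters, 9 were in the files. Hotairm1 had medians of 37.7 CPM in mesenchyme, 46.0 CPM in mesothelial cells, 15.9 CPM in endothelial cells and 5.60 CPM in neural crest. Hoxb5os had 24.6 CPM in mesenchyme and 0.55 CPM in endothelial cells, a log2 fold of -4.01 ± 0.48 (adjusted p = 9.3e-06). Hoxd3os1 had a median of 14.0 CPM in endothelial cells and 0 in neural crest, and Haglr had 12.4 CPM in neural crest and 0 in endothelial cells. Against mesenchyme, Hoxd3os1 was higher in endothelial cells (4.32 ± 0.61) and Haglr in neural crest (5.34 ± 0.93). Of the 5 transcripts tested in neural crest, 3 were lower than in mesenchyme (10.9% of all genes), Hotairm1 (-2.94 ± 0.32), Hoxaas3 (-3.62 ± 0.52) and Hoxb5os (-5.74 ± 0.53). Hoxd3os1 and Haglr both overlap exons of Hoxd3 on the opposite strand, and Hoxd3os1 also overlaps exons of Hoxd4. Hoxaas3 was higher in endothelial cells than in mesenchyme (1.68 ± 0.30, adjusted p = 0.000353), at medians of 37.8 and 14.8 CPM. Halr1 was higher in epithelium than in mesenchyme, mesothelial and immune cells, at 2.20 CPM against 0.06 CPM in mesenchyme.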

How the data were processed

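Single-cell RNA sequencing was measured in pooled embryonic mouse pancreata. The authors aligned reads to mm10 with Cell Ranger 1.1 (v1) or 2.1 (v2) and deposited raw UMI counts per gene and cell barcode. The Fev-Cre matrix aligned with reporter sequences was used, and the matrix of the same library without them was not. Here, barcodes with at least 200 genes were kept, and cells were clustered (2000 variable genes, 20 principal components, Leiden) without Hox genes and Hox noncoding transcripts. Clusters were named from marker lists. Cells in which markers of at least 2 compartments each reached 30% of that compartment's median share, with at least 2 of its markers detected, were left out as doublets, and no doublet caller was run. Cluster limits were set after the clusters were seen: clusters with at least 3 markers of another compartment (4 for mesenchymal markers) at 3-fold in 20% of cells were left out, mesothelial clusters needed 5 markers and a score of 2.3, and mural clusters 3 markers and a score of 2. A 34-cell myogenic cluster was also left out. No cluster reached 3 splenic-type markers, so mesenchymal cells were split by at least 1 UMI of Nkx2-5 or Tlx1.

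Counts were summed per class and library (at least 20 cells) and tested with edgeR 4.0.16 in R 4.3.3 (quasi-likelihood, TMM, filterByExpr, Benjamini-Hochberg over all genes), with library as a block between classes and the kit as a term over stages. Called means adjusted p below 0.05 and at least 2-fold. SE is the log2 fold divided by the square root of F. Libraries pair the classes because these come from 1 suspension, and in each comparison the lowest correlation of same-library deviations was between 0.539 and 0.834. The highest between different libraries was 0.541 to 0.736. It exceeded the lowest of the same library in comparisons with epithelium and in endothelial cells against mesenchyme. Medians were 0.642 to 0.940 for the same library and -0.486 to -0.150 for different ones. Stages have 2 or 3 libraries of separate pools (1 at E17.5 in mesenchyme). Among libraries of the same stage, only the 2 E14.5 v1 batches share kit and sort. Stage p-values thus measure scatter around a straight line over day with a kit term. That scatter holds departures from the line and differences of kit by stage as well as spread between pools. E12.5, E14.5 batch 2 and E17.5 of v1 were 1 collection batch. Members named were those called, up to 8 in each direction by adjusted p, and those with the highest levels. The rule for the members uses names only, but this family, its members, the gene lists and tests were chosen with earlier results of these data known. DESeq2 1.42.0, other normalization, filters, class rules and left-out libraries were alternatives. Tests were checked on simulated data. Python 3.11.15 was used. Positions are from GENCODE M21 on GRCm38, the build of mm10, which was not stated to be the counting annotation. Confidence intervals are at 95% (exact Poisson for counts, Wilson for shares), a count of 0 allows up to 3 UMIs, and these cover counting error only. A Hox gene and a cofactor gene are counted in the totals but not reported singly here.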

Additional observations from a re-analysis of the deposited data

Results flagged for a closer look

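Erythroid cells, which are in no comparison of the report, had a median summed Hox level of 35.2 CPM (9.38 to 82.3 CPM, n = 7 libraries), above the 8.69 CPM of epithelium (1.88 to 43.1 CPM, n = 8). The value was picked out because it is a signal in a class outside the comparisons. The 7 mesenchymal markers stood at 2.16% to 11.5% of their level in mesenchyme in erythroid cells and the summed Hox level at 2.38% to 14.3%. The part of mesenchymal RNA in the erythroid level was not tested.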

How the results depend on the processing

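Of 237 counts of called members under other settings, 182 stayed within 1.5 times the reported count. Of 106 called differences (a gene in a comparison), 81 were called in every setting in which the gene passed the filter, and none reversed. Genes filtered out in a setting are not counted as lost there. Without the replicate block (library as the pairing), 7 members were called in endothelial cells, 0 in immune cells and 4 in neural crest against epithelium, where only 7, 0 and 4 passed the filter, and 1 in mural and 0 in Nkx2-5- or Tlx1-positive cells against mesenchyme. With v1 libraries only, the counts were 8, 0 and 3 against epithelium (of 8, 1 and 3 tested), 0 and 1 against mesenchyme, and 9 for neural crest against mesenchyme, with fewer libraries. DESeq2 called 1 in mural and 1 in Nkx2-5- or Tlx1-positive cells, and 2 over stage in mesenchyme and 1 in epithelium, and DESeq2 size factors gave 1 in Nkx2-5- or Tlx1-positive cells. Without the filter, 7 were called in immune cells, and over stage 3 in mesenchyme, 4 in epithelium and 1 in endothelial cells. With classes from marker UMIs per cell, the counts were 2 in immune cells (1 higher and 1 lower than in epithelium) and 0 in mural cells, and over stage 4 in mesenchyme, 0 in mesothelial cells (5 libraries) and 6 in epithelium. With doublets kept they were 1 in mural and 1 in Nkx2-5- or Tlx1-positive cells, and over stage 1 in mesenchyme and 3 in epithelium. A replicate block of collection batch gave 1 over stage in mesenchyme and 2 in epithelium. Alternatives chosen after seeing the data were these: keeping clusters with markers of another class gave 2 in immune and 0 in mural cells, and over stage 3 in mesenchyme and 6 in epithelium, a wider mesothelial class gave 8 in mesothelial and 0 in Nkx2-5- or Tlx1-positive cells, and dropping 17 clusters (1533 cells) led by markers of another class kept every count within 1.5 times, with neural crest left in 4 of 6 libraries against epithelium and 3 of 5 against mesenchyme. The cause of these shifts was not tested.

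Leaving out 1 library at a time, counts against epithelium ran from 16 to 19 in mesenchyme, 15 to 19 in mesothelial cells, 13 to 16 in endothelial cells, 1 to 6 in immune cells and 6 to 9 in neural crest. Against mesenchyme they ran from 4 to 6 in mesothelial cells, 0 to 3 in mural cells, 0 to 2 in Nkx2-5- or Tlx1-positive cells, 7 to 13 in endothelial cells and 10 to 15 in neural crest. Over stage they ran from 0 to 1 in mesenchyme, 3 to 8 in mesothelial cells, 0 to 6 in epithelium and 0 to 0 in endothelial cells, and 0 to 0 for stage by class. The 24 to 51 endothelial cells of 5 libraries limit the levels of rare members there.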
